A study of Mus musculus with 42 samples.

Results

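The genes Nnt, Wdfy1, Dynlt1b, Cd59a, Nbea, Rab4a, Entpd4, Gm21685, Gm27177 and Gm10600, were followed in every RNAseq library of a study of sestrins in mouse tibialis anterior (TA) muscle. They were picked by name because their values differed between Sesn1KO and WT muscle in both the basal and the immobilized state, and they are 10 of the 13809 genes in the table. The study holds 42 libraries in 11 groups. The transgenic set (22 libraries, 6 groups) holds basal and immobilized muscle of WT mice and of the transgenic lines Sesn1 SkM-Tg and Sesn2 SkM-Tg, and the knockout set (20 libraries, 5 groups) has WT and Sesn1KO muscle, basal or immobilized, and WT muscle after denervation. Each group has 4 libraries except immobilized WT of the transgenic set and immobilized Sesn1 SkM-Tg, which have 3.

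The labels give strain C57BL/6J, male sex and an age of 4 months for every mouse. Sesn1 SkM-Tg mice carry human Sesn1 under the MCK promoter, and Sesn2 SkM-Tg mice carry a Tet-regulated human Sesn2 together with the MCK-tTA driver, both of which drive expression in muscle fibers. WT mice of the transgenic set were non-transgenic littermates of these lines, but the labels do not say from which of the lines a WT library came. The Sesn1KO mice were provided by another laboratory. The paper describes the WT mice compared with them as normal controls, and in a later general statement calls each WT group a littermate control. Immobilized muscle came from a hindlimb that was fixed, denervated muscle from a limb with a segment of the sciatic nerve removed, and basal muscle from mice with neither procedure.

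Most of the genes code for proteins, and these are of several kinds. Nnt is the nicotinamide nucleotide transhydrogenase of the inner mitochondrial membrane, which uses the proton gradient to make mitochondrial NADPH and so feeds the glutathione and thioredoxin systems that remove peroxide. It is also a textbook strain marker: C57BL/6J mice carry a deletion inside Nnt that other C57BL/6 substrains lack, and because the mouse reference genome is from C57BL/6J, reads from the deleted exons have no place to align. Wdfy1 (a FYVE and WD-repeat protein of early endosomes) and Rab4a (a small GTPase of recycling endosomes) act in endosomal traffic, Nbea (neurobeachin) is a scaffold for membrane traffic, Dynlt1b is a light chain of cytoplasmic dynein, Cd59a is a membrane-anchored inhibitor of the complement attack complex, and Entpd4 is a nucleoside diphosphatase of the Golgi and lysosomes. Gm21685, Gm27177 and Gm10600 are predicted genes, of which Gm27177 is annotated as antisense and the others as protein coding.

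By the GENCODE M21 annotation of GRCm38, the members lay on 8 chromosomes and none on that of Sesn1 (chr10:41809935-41908424). They were Nnt at chr13:119335448-119408997, Wdfy1 at chr1:79702262-79776143, Dynlt1b at chr17:6430112-6436296, Cd59a at chr2:104095801-104115354, Nbea at chr3:55625195-56183701, Rab4a at chr8:123805985-123835287 and Gm10600 at chr4:42240639-42242685. The other 3 lay within 1 stretch of chromosome 14, with Entpd4 at chr14:69337174-69367270, Gm21685 at chr14:69555424-69585520 and Gm27177 at chr14:69582164-69683286.

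Several members are near-identical copies of other genes, which limits how far their values can be separated. Cut into stretches of 50 bases, all 8206 stretches of the Entpd4 transcripts also occurred in those of Gm21685, which GENCODE M21 names Entpd4b. Gm27177 runs on the opposite strand across the end of Gm21685, all 6853 of its stretches occurred in a sister gene, Gm28049, and the library kit was not stated to keep the strand. Dynlt1b shared 83.2% of its stretches with other genes and Gm10600 92.5%, while Cd59a shared 3.9%, Nbea 3.2%, Wdfy1 1.7% and Rab4a none. Nnt shared 47.0%, almost all with another record of Nnt at the same place that the table does not list.

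**Figure D1:**
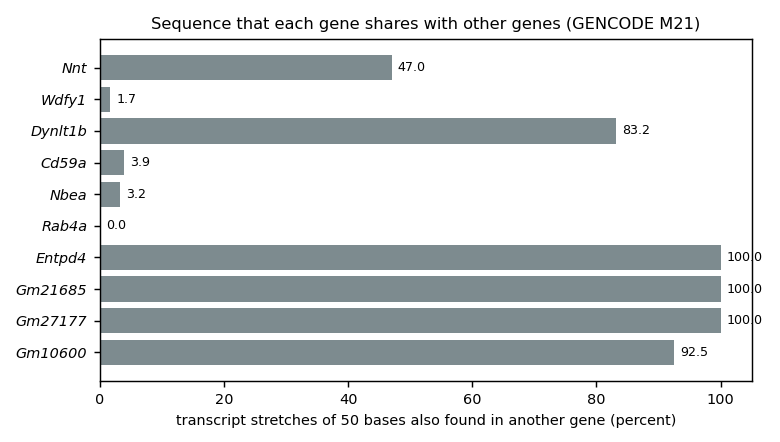
The horizontal axis is the percent of the 50-base transcript stretches of each gene that also occur in a transcript of any other gene in GENCODE M21, and each bar is 1 gene. Entpd4, Gm21685 and Gm27177 reach 100%, Gm10600 92.5% and Dynlt1b 83.2%, while Rab4a is at 0.

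The start of the coding sequences shows how little separates the copies. The lines below give, 5′ to 3′ from the start codon, the first 60 coding bases of Dynlt1b and of its 3 copies on the same chromosome, with the only base that differs among them in capitals. The bases were read from GENCODE M21 transcripts and span an intron, at chr17:6430212-6431912 (plus strand) for Dynlt1b, chr17:6314926-6317400 (minus) for Dynlt1a, chr17:6601810-6603519 (plus) for Dynlt1c and chr17:6653320-6655800 (minus) for Dynlt1f.
Dynlt1b: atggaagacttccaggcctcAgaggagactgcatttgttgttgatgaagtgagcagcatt
Dynlt1a: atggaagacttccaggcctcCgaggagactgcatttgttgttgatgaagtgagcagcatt
Dynlt1c: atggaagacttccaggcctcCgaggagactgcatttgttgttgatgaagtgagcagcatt
Dynlt1f: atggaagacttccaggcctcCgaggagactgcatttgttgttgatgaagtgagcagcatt
Counted from 1 at the start codon, the substitution from Dynlt1b to each copy is A21C, and it is the only one in the 342 coding bases of each pair (99.7% identity).

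Entpd4 and Gm21685 cannot be told apart in their coding sequence, since all 1842 coding bases were identical. Their first 60 coding bases, with no capitals because none differ, lie at chr14:69347587-69349124 and chr14:69565837-69567374 on the plus strand.
Entpd4: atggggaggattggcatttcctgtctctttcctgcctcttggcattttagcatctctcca
Gm21685: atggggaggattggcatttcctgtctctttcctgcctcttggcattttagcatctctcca

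Cd59a is less like its neighbouring copy. Its coding sequence (372 bases) and that of its neighbour Cd59b (390 bases) aligned over 366 bases with 69 differences (81.1% identity). The first 90 coding bases are shown because they already hold 4 differences, in capitals, at chr2:104104189-104110768 for Cd59a and chr2:104078876-104081025 for Cd59b, both on the plus strand.
Cd59a: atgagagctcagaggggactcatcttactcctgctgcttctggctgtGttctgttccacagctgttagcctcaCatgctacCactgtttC
Cd59b: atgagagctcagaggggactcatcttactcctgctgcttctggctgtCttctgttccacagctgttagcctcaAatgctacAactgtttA

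The values are the normalized counts of the authors on a linear scale, and they summed to between 722430 and 1276769 per library. Read depth is unknown, so no counting error can be given, and the labels do not say that the libraries of a group came from separate animals, so p-values measure the spread between libraries. Libraries of a group correlated with each other at a mean r of 0.963 to 0.989 over genes, lowest for WT basal replicate 4 of the transgenic set (0.963) and Sesn2 SkM-Tg basal replicate 2 (0.965). The muscle label was checked against its markers, and the summed level of 5 fiber markers (Acta1, Ckm, Myh4, Tnnt3 and Pvalb) was between 43454 and 126128. In bulk muscle, fewer cells of a type and less RNA per cell cannot be told apart.

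The targeted gene was checked first. Sesn1 stood at 9.11, 10.05, 8.41 and 8.99 in the basal Sesn1KO libraries and at 28.1, 22.5, 29.7 and 22.8 in basal WT muscle, with no overlap. After immobilization it stood at 37.3, 27.7, 19.4 and 19.6 in Sesn1KO and at 30.7, 41.0, 53.1 and 39.3 in WT. The library labelled immobilized Sesn1KO replicate 1 (37.3) thus lay above 1 of the immobilized WT libraries for the deleted gene.

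In the knockout set, 6 members were higher in Sesn1KO muscle (Nnt, Wdfy1, Dynlt1b, Cd59a, Nbea and Rab4a) and 4 were lower (Entpd4, Gm21685, Gm27177 and Gm10600). These differences chose the members, so they are given as a description with no test. All 10 passed the call rule of the other comparisons (adjusted p under 0.05 and an absolute log2 difference of at least 0.25, by limma) in both states. Of 13629 genes, 0.147% passed in basal muscle (0.0587% higher and 0.088% lower) and 0.947% in immobilized muscle (0.528% higher and 0.418% lower), and nothing is read from the members' count. The values of each library are given to describe whether a mouse line was uniform or mixed. In the basal and immobilized groups of this set the choice itself favours a small spread, so evenness there is not read as a result.

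Nnt had the largest of the higher differences. Its values in basal Sesn1KO muscle were 72.9, 96.3, 90.3 and 92.6 (88.0 ± 10.4, SD, n = 4), against 23.1, 24.2, 21.1 and 13.7 in basal WT muscle (20.5 ± 4.73, n = 4). In immobilized muscle they were 61.9, 53.9, 63.4 and 76.5 in Sesn1KO and 18.3, 14.6, 17.2 and 15.8 in WT. The ranges of the lines did not overlap in either state, and the difference of log2(value + 1) was 2.07 in basal and 1.89 in immobilized muscle. The 4 denervated WT libraries, which the choice of genes did not use, had Nnt at 13.3, 10.4, 12.1 and 14.8, within or below the other WT values.

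The endosomal and trafficking genes were also apart in each state. Wdfy1 stood at 15.1, 13.6, 15.7 and 17.2 in basal Sesn1KO muscle and at 4.998, 5.27, 6.196 and 5.34 in basal WT, and at 25.0, 22.3, 19.3 and 19.3 against 7.56, 6.32, 7.38 and 6.43 after immobilization. The log2 differences were 1.35 and 1.5002. Rab4a stood at 20.3, 21.6, 18.2 and 15.4 against 9.26, 8.93, 12.1 and 7.46 in basal muscle and at 13.0, 13.4, 15.0 and 15.4 against 8.41, 9.74, 8.43 and 7.60 in immobilized muscle. It had the smallest differences of the 10 genes in the immobilized state (0.67, with 0.94 in basal muscle), and its groups still did not overlap. Nbea, a low gene, lay between 4.84 and 6.26 in the 8 Sesn1KO libraries and between 1.31 and 2.77 in all 12 WT libraries, with log2 differences of 1.18 and 1.205.

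Dynlt1b stood at 34.9, 31.7, 32.8 and 26.6 in basal Sesn1KO muscle and at 10.5, 11.4, 12.5 and 13.2 in basal WT. In immobilized muscle it stood at 37.1, 40.6, 37.3 and 39.0 against 15.6, 15.1, 14.01 and 10.8, and the log2 differences were 1.33 and 1.42. Denervated WT muscle was intermediate, at 19.6, 22.5, 19.9 and 21.1, still below the lowest Sesn1KO library. Because the 4 Dynlt1 genes can exchange reads, their summed level was also taken, a step chosen after the values were seen. The sum was 45.6 ± 3.09 in basal Sesn1KO and 23.6 ± 1.74 in basal WT muscle (n = 4 each), a log2 difference of 0.92, and 0.95 after immobilization, without overlap in either state. The copies themselves had smaller differences, with Dynlt1a at -0.03 and -0.33, Dynlt1c at 0.61 and 0.24 and Dynlt1f at 0.04 and -0.11. Dynlt1-ps1, which shares 37.7% of the stretches of Dynlt1b and was left out of the sum, differed by 0.69 and 0.35 and was not called.

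Cd59a was the member that denervation brought closest to the knockout level. It stood at 34.7, 33.2, 36.4 and 38.6 in basal Sesn1KO muscle against 14.7, 21.7, 17.4 and 14.7 in basal WT, and at 34.2, 34.8, 36.4 and 29.2 against 14.4, 11.7, 15.5 and 14.7 after immobilization (log2 differences 1.03 and 1.202). Denervated WT muscle had 25.7, 26.5, 26.6 and 32.3, and its replicate 4 lay above the lowest Sesn1KO library. The neighbouring copy Cd59b differed by -0.16 in basal and -0.14 in immobilized muscle, and the sum of both genes by 0.87 and 1.08.

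The chromosome 14 genes were lower in Sesn1KO muscle. Entpd4 stood at 90.9, 72.9, 89.4 and 80.8 in basal Sesn1KO muscle against 173, 156, 160 and 148 in basal WT, and at 49.7, 41.0, 63.8 and 52.4 against 126, 99.8, 97.0 and 114 after immobilization. Gm21685 ran beside it, at 57.8, 51.4, 45.4 and 48.6 against 93.0, 102, 95.7 and 90.6 in basal and at 32.2, 25.2, 45.8 and 37.5 against 77.1, 67.4, 60.2 and 69.5 in immobilized muscle. The ratio of Entpd4 to Gm21685 was 1.62 ± 0.154 (SD) over the 42 libraries, between 1.35 and 1.97, and their sum differed by -0.92 and -1.04 on the log2 scale. By GENCODE M21 all stretches of each gene occur in the other, so these values and their ratio cannot separate the genes.

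Gm27177, the antisense entry beside them, had the widest gap of the 3. It stood at 0.404, 1.45, 0.916 and 0.775 in basal Sesn1KO muscle against 9.71, 7.24, 13.6 and 13.99 in basal WT, and at 0.148, 1.11, 0.729 and 1.15 against 4.02, 4.29, 4.01 and 4.86 after immobilization. On the log2(value + 1) scale, which understates differences of low genes, they were -2.67 and -1.61. The sister entry Gm28049 was mixed among WT libraries, between 0.119 and 3.94 in basal WT muscle, and did not pass 0.0918 in basal Sesn1KO muscle. Summed with it, Gm27177 differed by -2.83 and -2.11.

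Gm10600 was near 0 in the knockout. Its values in Sesn1KO muscle were 0.182, 0.213, 0.0690 and 0.0656 in the basal and 0.0719, 0.0687, 0.112 and 0.0574 in the immobilized state. WT muscle had 5.55, 7.67, 4.47 and 5.97 in the basal and 2.39, 3.21, 3.61 and 4.97 in the immobilized state, and 1.18, 1.90, 2.42 and 1.81 after denervation. The log2(value + 1) differences were -2.59 and -2.05. With the copies Gm17167, Gm5859 and Gm3883 added, they were -2.35 and -2.33, and the groups did not overlap.

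**Figure D2:**
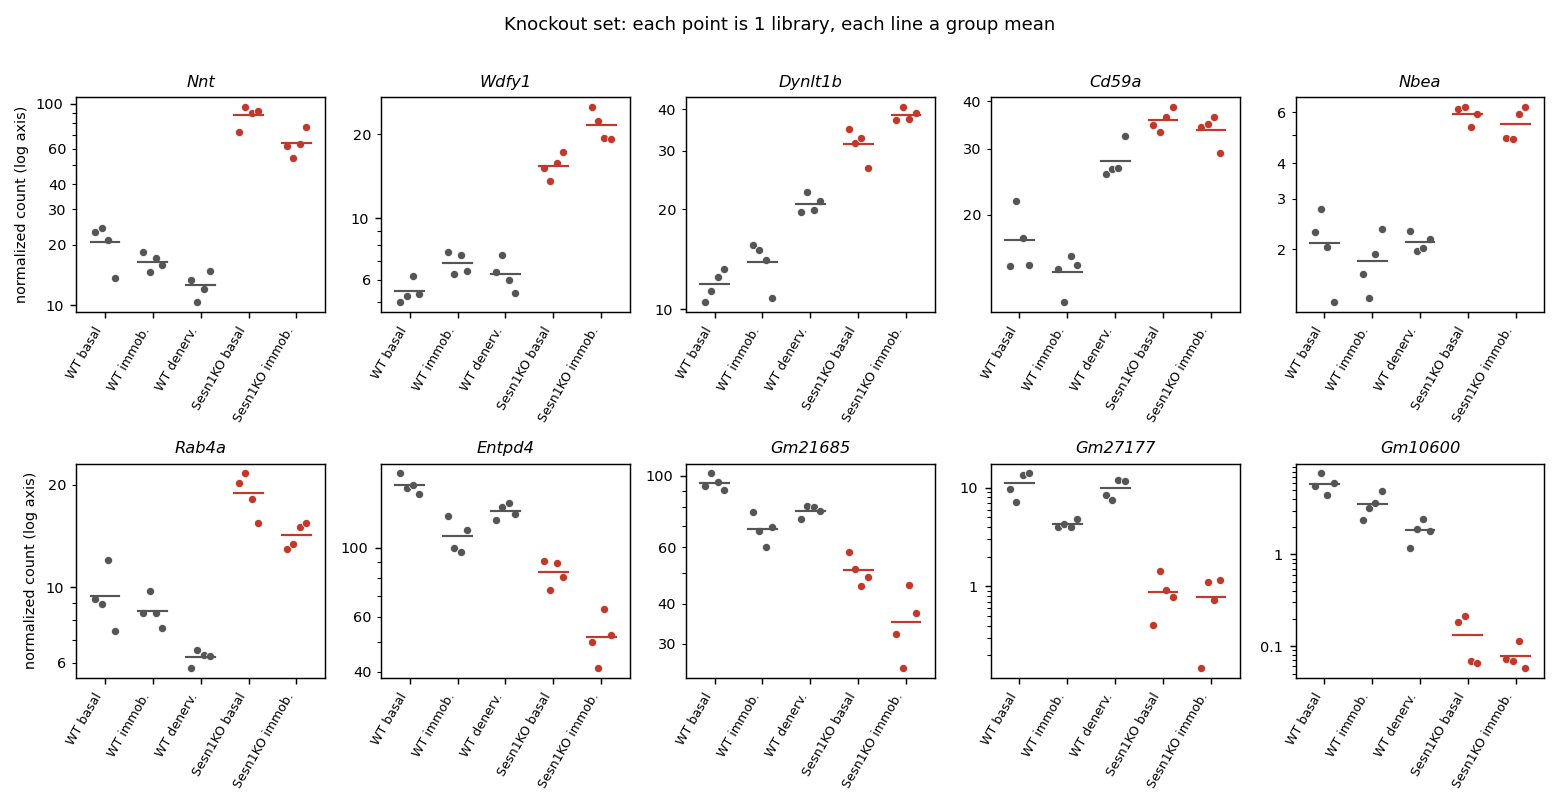
The vertical axis of each panel is the normalized count on a log axis, each point is 1 library of the knockout set, each line a group mean, grey WT and red Sesn1KO. In all 10 panels the red points lie apart from the basal and immobilized grey points, and only for Cd59a does a denervated WT library (32.3) reach the red range.

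Over all libraries of the knockout set, 9 of 10 members had no overlap between the 8 Sesn1KO and the 12 WT libraries, where 0.103% of genes tested had none. Cd59a was the exception. Most of these libraries chose the members, so the choice largely fixes this count. The same holds without the denervated libraries, where the count was 10 of 10 (0.132% of genes). It also holds within the basal (10 of 10, 4.16% of genes) and the immobilized libraries (10 of 10, 4.22%). Against the 4 denervated WT libraries alone, which the choice did not use although it used the Sesn1KO ones, 9 of 10 members had no overlap with Sesn1KO, in the directions of the other states, where 24.6% of genes had none. That share also takes in any genes that denervation itself changed, so the count is given as a description. The summed levels of the 7 marker lists (muscle fiber, leukocyte, endothelial, fibroblast, adipocyte, Schwann cell and erythroid genes) overlapped between Sesn1KO and WT for 7 of 7 lists in both states.

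The spread within a group was set beside that of all genes, as the ratio of the highest to the lowest library. In the groups that the choice of genes did not use, the median ratio over the members was 1.69 in basal Sesn1 SkM-Tg, 1.77 in basal Sesn2 SkM-Tg and 1.75 in basal WT muscle of the transgenic set, beside 1.45, 1.63 and 1.66 over all genes. In immobilized muscle of that set it was 1.29 for Sesn1 SkM-Tg (all genes 1.45), 1.39 for WT (1.42) and 1.96 for Sesn2 SkM-Tg (1.49), and in denervated WT muscle of the knockout set 1.21 beside 1.36. The members were thus more spread than the typical gene in 4 of these 7 groups, most of all in immobilized Sesn2 SkM-Tg muscle. In the groups that chose the genes, where a small spread favours being chosen, the median ratio was 1.29 in basal and 1.36 in immobilized Sesn1KO muscle and 1.55 and 1.29 in WT muscle (all genes 1.36, 1.60, 1.38 and 1.49), and nothing is read from it. The widest member in Sesn1KO muscle was Gm27177, 3.58-fold in the basal and 7.77-fold in the immobilized state.

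In all, 16 genes passed the call rule in both knockout comparisons with 1 sign, the 10 members and 6 others, all of them lower in Sesn1KO muscle. Gm13301 (-1.94 in basal and -1.005 in immobilized muscle on the log2 scale) and Gm17167 (-1.48 and -1.66) lie beside Gm10600 on chromosome 4. Gm15446 differed by -1.90 and -2.09, 1700112E06Rik by -1.25 and -0.87, Gm9780 by -1.22 and -1.33 and Gm10524 by -1.15 and -1.15. Over the 20 libraries of the knockout set, the patterns most like that of Nnt were those of Nbea, Wdfy1 and Rab4a, with a root mean square difference of centred log2 values of 0.56, 0.59 and 0.62, beside 1.10 for the values of Nnt themselves. The nearest mirror images were Gm15446, Gm27177 and Gm17167, at 0.51, 0.60 and 0.63. Because 16 of these libraries are those that chose the members for the same gap, the likeness follows from the choice and is given as a description.

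Of the nearest tested genes that are not members, none was called in either knockout comparison. Paip1, 19.6 kb from Nnt, differed by -0.10 and 0.04, Serpine2, 18.1 kb from Wdfy1, by 0.18 and -0.22, and Ccsap, 5.54 kb from Rab4a, by 0.31 and 0.29. Tmem181b-ps, 2.23 kb from Dynlt1b, differed by 0.70 and 0.64, and the copies Gm28049 by -1.34 and -1.40 and Gm5859 by -1.17 and -0.88. Within 1 Mb, none of 10 tested genes around Wdfy1, 19 around Dynlt1b, 15 around Cd59a, 8 around Nbea and 36 around Rab4a was called in either knockout comparison. Around Nnt 1 of 8 was called (4833420G17Rik, immobilized), and around the chromosome 14 genes the calls were the members themselves and Nudt18. Around Gm10600 the calls were Gm13301 and Gm17167. Of 66 genes tested within 10 Mb of Sesn1, 0 were called by limma in either knockout comparison.

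Genes of the same processes were checked from 5 lists. Of 13 enzymes of mitochondrial NADPH and peroxide handling, the pathway that Nnt feeds, 0 passed the test in either knockout comparison, with a median log2 difference of 0.04 in basal and -0.02 in immobilized muscle beside 0.01 and -0.01 over all genes. Of 10 early and recycling endosome genes, 7 dynein genes, 7 complement regulators and 15 paralogs of members, 0 passed either. Over all genes 0.147% passed in basal and 0.947% in immobilized muscle, so nothing is read from these counts of 0. In the Sesn2 SkM-Tg comparisons 1 gene of these lists passed, where 2.5% of all genes passed in basal and 2.94% in immobilized muscle. It was Clu, a chaperone and complement inhibitor, which was lower in immobilized muscle (-1.98 ± 0.26 SE, adjusted p = 0.00025, limma). Nothing is read from the count of 1.

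Whether the members also varied among the transgenic lines was asked in libraries that the choice of genes had not used. In Sesn1 SkM-Tg muscle 0 of 10 members passed the test against WT, in the basal (0.0292% of 13705 genes called) and in the immobilized state (0.0073%). The test called only 4 genes in basal and 1 in immobilized muscle, so 0 members is near the share of all genes. The Sesn1 entry itself passed in basal (1.61, adjusted p = 0.0021, limma) but not in immobilized muscle (1.43, adjusted p = 0.091, limma). The count of 0 therefore does not show that the members were alike in this line and WT. By limma 0 members had an unadjusted p under 0.05 in either state, against 497 and 417 of all genes. Nnt values in the basal state were 20.1, 18.7, 16.0 and 29.5 for Sesn1 SkM-Tg and 18.8, 20.2, 26.7 and 47.4 for WT, a log2 difference of -0.35 ± 0.29 (SE, adjusted p = 1.0, limma). After immobilization it stood at 13.1, 16.7 and 10.4 against 14.6, 16.7 and 13.3 (-0.15 ± 0.33, adjusted p = 1.0, limma).

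In Sesn2 SkM-Tg muscle several members differed from WT. In the basal state 4 of 10 members passed the test (2.5% of genes called, 1.5% higher and 1.0% lower), with Nnt, Dynlt1b and Rab4a higher and Gm27177 lower than in WT. In the immobilized state 5 of 10 passed (2.94%, 1.65% higher and 1.29% lower), with Nnt and Rab4a higher and Entpd4, Gm21685 and Gm27177 lower. Nnt, Rab4a and Gm27177 passed in both states (3 of 10, 0.657% of genes), and 6 of 10 passed in either (4.79%). Each of the 6 had the sign of its difference in Sesn1KO muscle, but the share of all genes with matching signs was not counted. Entpd4, Gm21685 and Gm27177 share sequence on chromosome 14, so they are not separate results. Of the members that passed in neither state, Nbea (-0.51), Cd59a (-0.03) and Gm10600 (0.24) had the opposite sign in basal but not in immobilized muscle.

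Nnt was even in basal Sesn2 SkM-Tg muscle, at 80.7, 77.5, 80.3 and 82.1 (80.2 ± 1.91, SD, n = 4). WT basal muscle of the set had 28.3 ± 13.2 (n = 4), with replicate 4 (47.4) above the others but below each Sesn2 SkM-Tg library. The log2 difference was 1.57 ± 0.29 (SE, adjusted p = 0.0037, limma). After immobilization Nnt was spread in Sesn2 SkM-Tg muscle, at 65.1, 39.8, 20.02 and 53.6, with replicate 3 close to the WT libraries (14.6, 16.7 and 13.3), and the difference was 1.41 ± 0.31 (adjusted p = 0.018, limma).

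Rab4a, the recycling endosome GTPase, had the lowest adjusted p of the members in the basal comparison. It stood at 20.1, 28.1, 20.2 and 17.6 in basal Sesn2 SkM-Tg muscle against 7.71, 7.49, 8.04 and 13.5 in WT, a log2 difference of 1.16 ± 0.17 (adjusted p = 0.00044, limma). In immobilized muscle it stood at 15.4, 12.7, 15.5 and 12.6 against 6.67, 8.29 and 7.69 (0.81 ± 0.18, adjusted p = 0.021, limma). Neither state overlapped.

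Dynlt1b stood at 25.6, 37.8, 38.6 and 22.01 in basal Sesn2 SkM-Tg muscle against 13.5, 10.2, 11.2 and 17.4 in WT (1.17 ± 0.21, adjusted p = 0.0035, limma). After immobilization it stood at 30.7, 24.6, 35.3 and 52.8 against 16.5, 23.8 and 23.1, which did not pass (0.70 ± 0.23, adjusted p = 0.096, limma), though the ranges did not overlap. The sum of the 4 Dynlt1 genes differed by 0.80 and 0.52, and its ranges overlapped in the immobilized state. Dynlt1-ps1, outside that sum, differed by 1.05 and 1.11, which did not pass (adjusted p = 0.22 and 0.19, limma).

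Of the chromosome 14 genes, Gm27177 stood at 1.60, 4.63, 5.96 and 1.49 in basal Sesn2 SkM-Tg muscle against 11.6, 8.15, 9.81 and 10.9 in WT (-1.47 ± 0.35, adjusted p = 0.024, limma). In immobilized muscle it stood at 1.18, 0.333, 0.0428 and 1.27 against 3.17, 2.64 and 8.97 (-1.72 ± 0.37, adjusted p = 0.018, limma). Entpd4 was 125, 126, 134 and 134 against 147, 151, 150 and 178 in the basal state, a small gap without overlap that did not pass (-0.26 ± 0.15, adjusted p = 0.43, limma). After immobilization it stood at 54.9, 35.3, 35.6 and 56.3 against 93.8, 79.1 and 70.1 and passed (-0.84 ± 0.16, adjusted p = 0.010, limma), as did Gm21685 (-0.68 ± 0.18, adjusted p = 0.044, limma).

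Wdfy1, Cd59a, Nbea and Gm10600 passed in neither state. Wdfy1 stood at 9.67, 4.604, 15.3 and 9.97 in basal Sesn2 SkM-Tg muscle and at 13.3, 9.57, 11.6 and 4.55 in WT, a log2 difference of 0.00 ± 0.31 (SE). Cd59a differed by -0.03 ± 0.26 and Nbea by -0.51 ± 0.26 in basal muscle, and by 0.44 ± 0.28 and 0.25 ± 0.28 in immobilized muscle. As a single entry, Gm10600 was mixed within the line: immobilized Sesn2 SkM-Tg libraries had 2.57, 0.0175, 0.0282 and 0.0278. Replicate 1 was at the level of WT (2.41, 1.68 and 0.366) and the other 3 lay below every other library of the transgenic set. Summed with the copies Gm17167, Gm5859 and Gm3883, the line lay between 0.127 and 6.82 (3.24 ± 2.85, SD, n = 4). The same sum in immobilized WT muscle lay between 2.30 and 4.25, so the ranges overlapped. Whether reads moved among the copies was not tested. In the basal state the line had Gm10600 itself at 3.87, 5.57, 1.95 and 1.47 against 2.22, 2.11, 2.37 and 2.54 in WT.

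**Figure D3:**
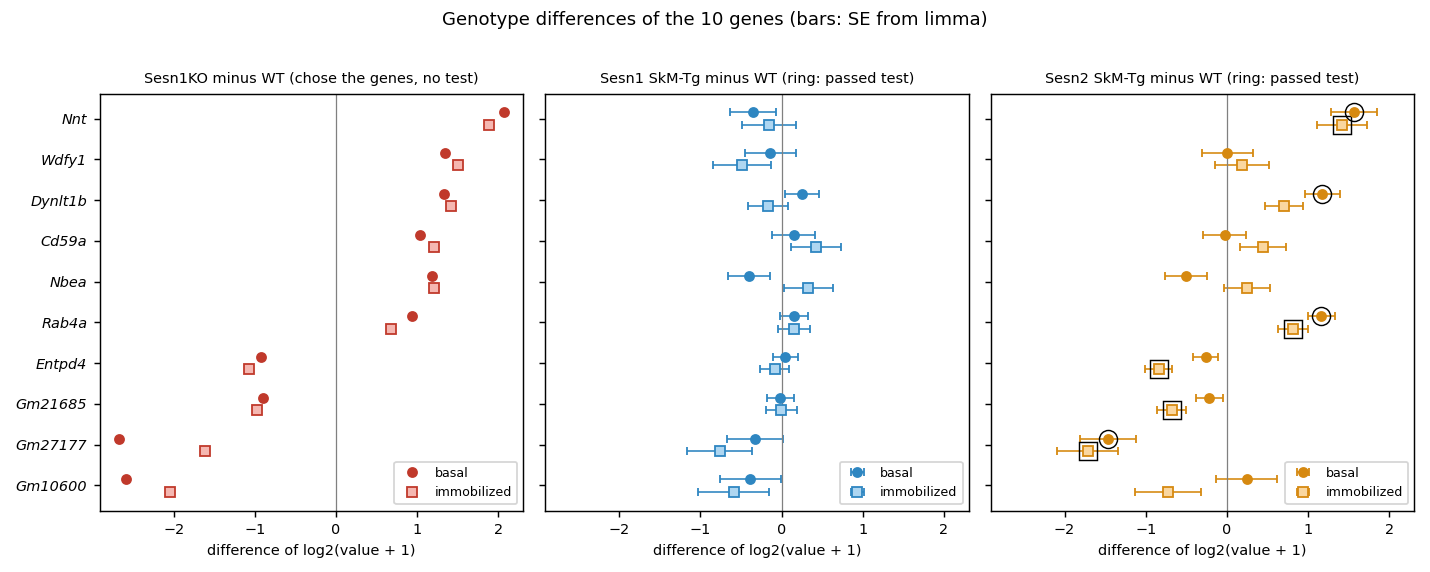
The horizontal axis is the difference of log2(value + 1) from WT for the 10 genes, filled circles basal and pale squares immobilized, bars the SE from limma and black outlines the differences that passed the test. The left panel holds the Sesn1KO differences that chose the genes, without bars or test. No Sesn1 SkM-Tg point is outlined, and the outlined Sesn2 SkM-Tg points are Nnt, Rab4a and Gm27177 in both states, Dynlt1b in basal and Entpd4 and Gm21685 in immobilized muscle.

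Counted by overlap, 5 of 10 members separated the basal Sesn2 SkM-Tg from the basal WT libraries (8.23% of genes) and 6 of 10 the immobilized ones (18.7%). For Sesn1 SkM-Tg the counts were 0 (2.71%) and 3 (6.82%). The 3 were Cd59a and Nbea, higher than in WT, and Gm27177, lower than in WT. These are the directions they had in Sesn1KO muscle, though none of them passed the test in this line. Summed marker levels of immobilized Sesn2 SkM-Tg and WT muscle overlapped for 5 of 7 lists. The 3 endothelial markers summed to 199 to 268 against 162 to 197, and the 3 fibroblast markers to 237 to 372 against 462 to 659, and their part in the immobilized differences was not tested. In basal muscle 7 of 7 lists overlapped.

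Single libraries decided some of these calls. The basal calls of Nnt, Dynlt1b and Rab4a held with each of the 8 libraries left out in turn (highest adjusted p 0.021, 0.019 and 0.0031, limma). That of Gm27177 was lost without Sesn2 SkM-Tg replicate 1 or 4 or WT replicate 1 or 3 (-1.26, -1.24, -1.40 and -1.48, adjusted p 0.060 to 0.083, limma). Nbea, which was lower in basal Sesn2 SkM-Tg muscle, became a call without WT basal replicate 4 (-0.83, adjusted p = 0.021, limma), against the direction it had in Sesn1KO.

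In immobilized muscle, the call of Nnt was lost without Sesn2 SkM-Tg replicate 1 or WT replicate 1 or 3 (1.19, 1.40 and 1.34), that of Rab4a without Sesn2 SkM-Tg replicate 1 or 3 or WT replicate 1 or 3 (0.77, 0.76, 0.73 and 0.82), and that of Entpd4 without WT replicate 1 (-0.73). Gm27177 was lost without Sesn2 SkM-Tg replicate 3 or WT replicate 3 (-1.51 and -1.27), and Gm21685 without Sesn2 SkM-Tg replicate 2 or 3 or any WT library (between -0.54 and -0.80). The number of members called went from 5 to 1 without WT replicate 1 or 3, to 2 without Sesn2 SkM-Tg replicate 3 and to 3 without Sesn2 SkM-Tg replicate 1. When only the compared groups entered the fit, Rab4a in both states and Nnt in the basal state remained calls by limma, while Dynlt1b (adjusted p = 0.051) and Gm27177 (0.089) in basal muscle and Nnt (0.061), Entpd4 (0.061), Gm21685 (0.11) and Gm27177 (0.060) in immobilized muscle did not. The basal call of Gm27177 was also lost on the log2(value + 0.1) scale (-1.77, adjusted p = 0.10, limma), and the immobilized one of Gm21685 with median centring or without the variance trend (adjusted p = 0.054 for both, limma).

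**Figure D4:**
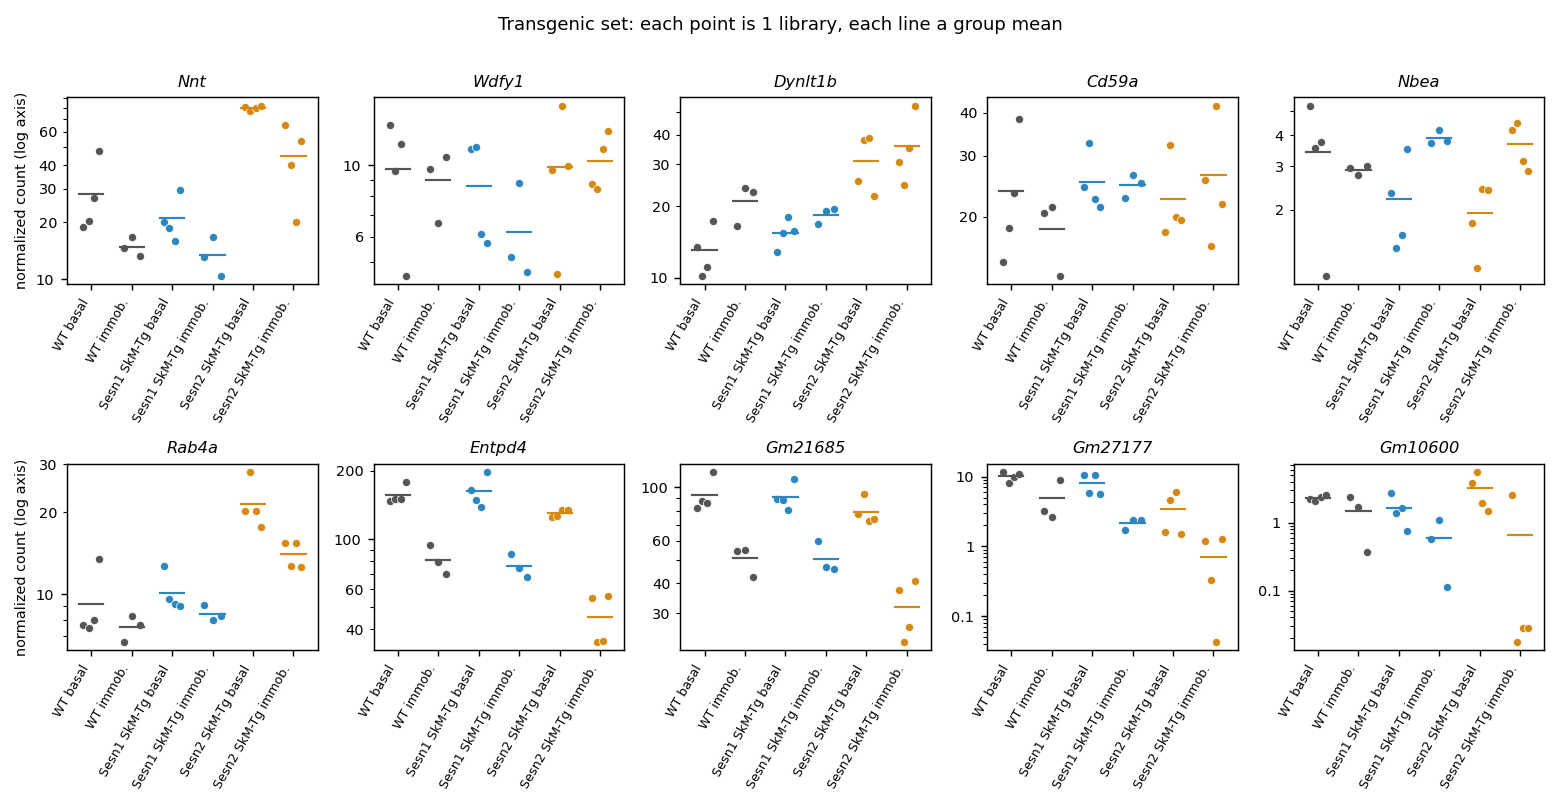
The vertical axis of each panel is the normalized count on a log axis, each point is 1 library of the transgenic set, each line a group mean, grey WT, blue Sesn1 SkM-Tg and orange Sesn2 SkM-Tg. Nnt in basal Sesn2 SkM-Tg muscle sits between 77.5 and 82.1, above all grey and blue points, while immobilized libraries of that line spread from 20.02 to 65.1, and Gm10600 shows 1 immobilized Sesn2 SkM-Tg library at 2.57 and 3 at or under 0.0282.

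Among WT libraries of the transgenic set, 1 stood apart. Basal replicate 4 was the highest of its group for 7 of 10 members, among them Nnt (47.4, others 18.8 to 26.7), Rab4a (13.5, others 7.49 to 8.04), Cd59a (38.5, others 14.8 to 23.4) and Entpd4 (178, others 147 to 151), and the lowest for Wdfy1 (4.55, others 9.57 to 13.3) and Nbea (1.09, others 3.57 to 5.26). It was also the library with the lowest agreement with its group over all genes (0.963). Among the basal Sesn2 SkM-Tg libraries, replicate 2 had the highest Cd59a (32.3) and Rab4a (28.1) and the lowest Wdfy1 (4.604) and Nbea (1.16), with an agreement of 0.965. Its 3 erythroid markers (Hba-a1, Hbb-bs and Alas2) summed to 838, against 127 to 218 in the other libraries of its group and 73.0 to 443 in basal WT libraries of the set, and their part in its values was not tested.

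Levels could not be compared across the sets, since the values looked adjusted between them. Per gene, the mean log2 values of the sets differed with an SD of only 0.0596 over all genes, while basal WT muscle of the sets differed with an SD of 0.28. For the members, the set means differed by -0.08 to 0.15, although the sets hold different lines. The Nnt level of Sesn2 SkM-Tg muscle (80.2) and that of Sesn1KO muscle (88.0) stand on scales that were set apart, and no order is read from them.

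Immobilization was tested in each line of the transgenic set, whose libraries the choice of members did not use. It was also tested as the average of WT and Sesn1KO in the knockout set. The size of that average does not depend on the knockout differences. Its SE and p-values do, because a small spread in the same libraries favours being chosen. The chromosome 14 genes fell in each of these comparisons. The log2 difference of Entpd4 was -0.95 ± 0.16 (SE) in WT muscle of the transgenic set, -1.08 ± 0.16 in Sesn1 SkM-Tg and -1.52 ± 0.15 in Sesn2 SkM-Tg muscle (adjusted p = 0.00033, 8.5e-05 and 4.9e-07, limma). Averaged over WT and Sesn1KO muscle of the knockout set, it fell by 0.62 ± 0.08 (adjusted p = 1.5e-06, limma). The differences of Gm21685 were -0.86, -0.85, -1.32 and -0.51 and those of Gm27177 -1.05, -1.49, -1.3004 and -0.63 in the same order, and all passed, although the WT call of Gm27177 (adjusted p = 0.039, limma) was lost without WT basal replicate 1, 3 or 4 or immobilized replicate 1 or 2 (-0.99, -1.06, -1.01, -0.87 and -0.78). Immobilization in Sesn1KO muscle alone was not tested. Means of the knockout set for Entpd4 were 159 in the basal and 109 in the immobilized state in WT and 83.5 and 51.7 in Sesn1KO, and those of Gm21685 were 95.3 and 68.5 in WT and 50.8 and 35.2 in Sesn1KO. For Gm27177 they were 11.1 and 4.30 in WT but 0.886 and 0.784 in Sesn1KO, where the states overlapped, so its averaged fall is almost all that of WT.

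In all, 4 of 10 members passed in WT muscle of the transgenic set (29.3% of genes called, 14.9% higher and 14.5% lower) and 3 of 10 in Sesn1 SkM-Tg (34.7%, 18.2% and 16.5%). The counts were 6 of 10 in Sesn2 SkM-Tg (30.7%, 15.0% and 15.7%) and 6 of 10 in the averaged knockout set (46.1%, 21.3% and 24.8%). The latter count rests on libraries that chose the members. Nnt fell by 0.95 ± 0.29 in Sesn2 SkM-Tg muscle (adjusted p = 0.015, limma), a call lost without immobilized replicate 3 (-0.62), and by 0.37 ± 0.11 in the knockout set (adjusted p = 0.0067, limma). In WT and Sesn1 SkM-Tg muscle its differences were -0.80 and -0.60 and did not pass, though the WT one became a call without WT basal replicate 1 or 2 (-0.95 and -0.92). Gm10600 fell by 1.48 ± 0.38 in Sesn2 SkM-Tg muscle (adjusted p = 0.0053, limma) and by 0.34 ± 0.13 in the knockout set average (adjusted p = 0.029, limma), where WT means were 5.91 in the basal and 3.54 in the immobilized state and Sesn1KO means 0.132 and 0.0776. The latter call was lost without Sesn1KO basal replicate 2, WT basal replicate 2 or WT immobilized replicate 1 (-0.33, -0.28 and -0.28). Rab4a fell by 0.57 ± 0.17 in Sesn2 SkM-Tg muscle (adjusted p = 0.014, limma), lost without basal replicate 2 (-0.44).

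The higher members did not share a direction under immobilization. Wdfy1 rose by 0.37 ± 0.08 in the knockout set (adjusted p = 0.00096, limma) and Dynlt1b by 0.66 ± 0.23 in WT muscle of the transgenic set (adjusted p = 0.034, limma), the latter lost without WT basal replicate 2 or 3 or immobilized replicate 2 or 3 (0.56, 0.60, 0.57 and 0.59). Cd59a and Nbea passed in none of the 4 comparisons, though Nbea became a call in Sesn1 SkM-Tg muscle without basal replicate 4 (0.84, adjusted p = 0.032, limma) and in Sesn2 SkM-Tg muscle (0.68) without the variance trend, with a stricter filter or with only the compared groups fitted (adjusted p 0.028 to 0.050, limma). Other settings ended the WT calls of Dynlt1b (only the compared groups, adjusted p = 0.055, limma) and Gm27177 (log2(value + 0.1), adjusted p = 0.13, limma) and that of Gm10600 in the knockout set (median centring, adjusted p = 0.055, limma). In the knockout set Dynlt1b (0.24) and Rab4a (-0.25) had an adjusted p of 0.014 and 0.030 by limma but stayed under the size threshold of 0.25, which log2(value + 0.1) took both past. The test of a difference in the immobilization effect between either transgenic line and WT called 0 members by limma (0.0% and 0.0073% of genes). At an unadjusted p under 0.05 by limma there were 0 members for Sesn1 SkM-Tg, against 401 of 13705 genes. For Sesn2 SkM-Tg there was 1 member, against 1008 genes, and nothing is read from these counts. Immobilization also moved the cell markers: in WT muscle of the transgenic set the fiber markers summed to 88217 to 120613 in the basal and 61069 to 76051 in the immobilized state, and 2 leukocyte markers in the table (Ptprc and Cd68) to 2.85 to 8.35 and 25.4 to 57.5, and their part in the changes of the members was not tested.

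**Figure D5:**
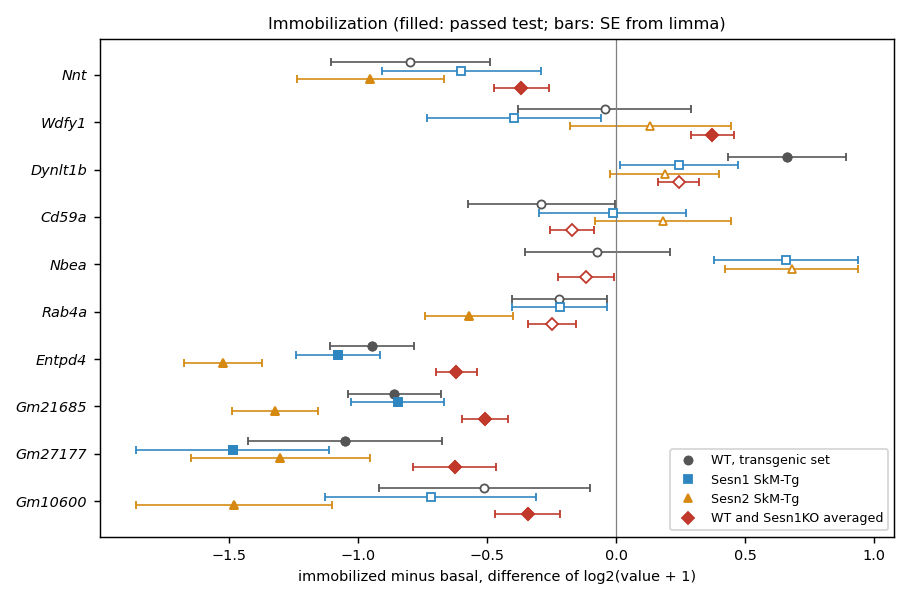
The horizontal axis is immobilized minus basal in log2(value + 1), each symbol a line or the average of WT and Sesn1KO, bars the SE from limma and filled symbols those that passed the test. Entpd4, Gm21685 and Gm27177 are filled and to the left of 0 for all 4 symbols, and Wdfy1 and Dynlt1b hold the only filled symbols to the right.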

How the data were processed

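RNA of TA muscle was sequenced as 42 libraries. Per the submitters' processing notes the authors used FastQC, cutadapt 1.7.1, RSEM 1.2.20, limma and edgeR with GRCm38. The signal values deposited by the authors are normalized counts on a linear scale, not read counts, and depth is unknown. RSEM shares reads that fit several copies of a gene among them by estimation. How the sets were combined is not given in the sources used here, so comparisons stayed within a set.

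The 10 genes and the lists (5 pathway or paralog lists and 7 marker lists) were chosen with earlier results of these data known, and the named genes follow from them: members, other genes called in both knockout comparisons, nearest neighbours and genes with a pattern like Nnt. In R 4.3.3 with limma 3.58.1, log2(value + 1) of every gene with a value of 1 or more somewhere in the set was fitted with 1 coefficient per group (eBayes, mean-variance trend). The tests were two-sided, Benjamini-Hochberg adjustment ran over all genes fitted, and calls needed an adjusted p under 0.05 and an absolute difference of at least 0.25. Fold changes on this scale understate those of low genes. The fit was tested on simulated data. Positions, sequences and shared stretches of 50 bases came from GENCODE M21, which matched 13715 of the 13809 genes (99.3%). Shared stretches, summed copies and the Entpd4 ratio were added after the data were seen. Alternatives covered the pseudocount, filters, scaling, variance model, samples in the fit, replicate block and single libraries. Figures used Python 3.11.15 and matplotlib 3.10.9.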

Additional observations from a re-analysis of the deposited data

Results flagged for a closer look

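Among 99 pairs of a gene (the 10 members and Sesn1) and a group of 4 libraries, 7 had 1 library whose gap to the nearest of the others was wide for its group by Dixon's criterion, where chance gives about 1 in 20. Cd59a stood at 32.3 in Sesn2 SkM-Tg basal replicate 2 (others 18.0 to 19.9) and at 32.3 in denervated WT replicate 4 (others 25.7 to 26.6). Rab4a stood at 12.7 in Sesn1 SkM-Tg basal replicate 1 (others 9.01 to 9.55) and at 13.5 in WT basal replicate 4 of the transgenic set (others 7.49 to 8.04). Entpd4 stood at 178 in that same WT library (others 147 to 151). Gm10600 stood at 2.57 in Sesn2 SkM-Tg immobilized replicate 1, where the other libraries had 0.0175 to 0.0282. Sesn1 stood at 6.997 in Sesn2 SkM-Tg basal replicate 2 (others 11.7 to 12.1).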

How the results depend on the processing

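The number of members called in Sesn2 SkM-Tg against WT went from 4 to 2 in the basal and from 5 to 1 in the immobilized state when only the compared groups entered the fit. The log2 differences stayed the same in this setting, for example 1.17 for Dynlt1b in basal and 1.41 for Nnt in immobilized muscle. The setting altered their estimated spread and with it the adjusted p-values. Why the spread estimates differed was not tested. With 1 library left out it ranged from 3 to 5 in the basal and from 1 to 5 in the immobilized state, the immobilization count from 2 to 4 in WT of the transgenic set, 3 to 4 in Sesn1 SkM-Tg, 5 to 6 in Sesn2 SkM-Tg and 5 to 8 in the knockout set, and the count without overlap from 9 to 10. The Sesn1 SkM-Tg comparisons stayed at 0 members. Under settings that left out no library, the other 65 counts stayed within 1.5 times of those reported. Reversed signs were all of differences that did not pass. With quantile normalization Gm21685 in Sesn1 SkM-Tg against WT was 0.0027 in basal and 0.018 in immobilized muscle, Wdfy1 in basal Sesn2 SkM-Tg -0.031 (-0.017 with median centring) and Cd59a under immobilization in Sesn1 SkM-Tg 0.075.

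Replicate numbers are shared between groups, but same-numbered libraries correlated at -0.452 to 0.534 and no pair of groups had every r over 0.1, so the numbers were not taken to pair libraries. The replicate block left each count of members called as it was, and it turned Cd59a under immobilization in Sesn1 SkM-Tg to 0.0038.

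With 1 library left out, these differences changed sign, with their lowest and highest values. In basal Sesn1 SkM-Tg against WT they were Wdfy1 (-0.43 to 0.027), Cd59a (-0.039 to 0.40), Entpd4 (-0.051 to 0.12) and Gm21685 (-0.096 to 0.094), and in the immobilized state Nnt (-0.31 to 0.0036), Entpd4 (-0.18 to 0.024) and Gm21685 (-0.12 to 0.066). In basal Sesn2 SkM-Tg they were Wdfy1 (-0.29 to 0.29), Cd59a (-0.22 to 0.22) and Gm10600 (-0.0094 to 0.46), and in the immobilized state Wdfy1 (-0.0036 to 0.30). Under immobilization they were Wdfy1 (-0.33 to 0.14) and Nbea (-0.40 to 0.13) in WT, Cd59a (-0.084 to 0.11) in Sesn1 SkM-Tg, and Wdfy1 (-0.15 to 0.36), Dynlt1b (-0.012 to 0.34) and Cd59a (-0.060 to 0.37) in Sesn2 SkM-Tg. With log2(value + 0.1), 7 knockout differences of low genes grew, for example Gm10600 to -4.73 and -4.32. Depth is unknown, so counting error of Gm27177 and Gm10600 near 0 cannot be given.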
